A study of Mus musculus with 2 samples.

Results

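Cd163, Mrc1, Msr1, Folr2, Lyve1, Cbr2, F13a1, Cd209f and Vcam1 are genes that are read in mouse tissue macrophages as signs of scavenging and of a perivascular position. They were taken as a fixed list of 9 genes out of the 27998 genes in the matrices, and their levels were not used to choose cells or libraries. The list is named for receptors, but 2 of the 9, Cbr2 and F13a1, encode enzymes. They were measured by droplet single-cell RNA sequencing (10x Genomics 3′ v2), which counts transcript ends by unique molecular identifiers (UMIs), in macrophages sorted from the mouse small intestine.

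The wild-type library came from male C57BL/6J mice obtained from Janvier, and the knockout library from CCR2-/- mice of JAX strain 004999 that were bred in-house and whose sex is not given in the sources used here. Genotype and source of the animals cannot be told apart. For each genotype 3 to 4 intestines were pooled after removal of mucus and epithelium and digestion with Liberase TL, and live CD45+ cells that were CD11b+, MHCII+ and CD64+ and lacked CD3, TCRb, B220, SiglecF, Ly6C and Ly6G were sorted. The gate thus left out cells with Ly6C protein, a marker of incoming blood monocytes. The wild-type cells were run on 2 lanes, which are 1 sample and serve below as a yardstick of the spread within it. With 1 library per genotype no difference between genotypes has a replicate, no p-value is given, and intervals (95%) cover counting error only.

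Scavenger receptors bind modified proteins and lipids, mannose-bearing glycoproteins or haemoglobin complexes, and carry them into the cell. Macrophages that lie along vessels and nerves in many tissues carry several of these receptors together with Lyve1, Folr2 and Cbr2 and are largely long-lived. In the intestine most macrophages lie in the lamina propria and are replaced by blood monocytes, which need Ccr2 to leave the bone marrow, while smaller self-maintaining populations lie in the deeper layers.

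After removal of cells with fewer than 200 detected genes or more than 10% mitochondrial UMIs, 3016 wild-type cells (2109 in lane 1 and 907 in lane 2) and 2612 knockout cells remained, with medians of 6129 and 2439 UMIs per cell. The lanes shared 5 barcode sequences with each other, and lane 1 shared 6 with the knockout. Ccr2 itself stood at 331 counts per 1000000 UMIs of the library (CPM) in the wild type and 6.88 CPM in the knockout, and where the deletion lies relative to the counted 3′ end is not given in the sources used here. At least 4 of 8 core macrophage markers were found, without the markers of another cell type, in 2921 wild-type and 2172 knockout cells. Markers were read at full depth, so the shallower knockout cells pass such a gate less readily. The part of depth in this difference was not tested. Several groups of marker genes differed between the libraries. The summed level of 13 dissociation stress genes was 7257 CPM in the wild type (7331 and 7080 in the lanes) and 23240 CPM in the knockout, where 10 of the 13 were at least 2-fold higher and 2 at least 2-fold lower. Haemoglobin genes and Alas2 summed to 762 CPM in the wild type (1080 and 3.44 in the lanes) and 7435 CPM in the knockout. The lanes thus differed in these genes, and also in fibroblast markers (34.5 and 14.1 CPM), so a gap between lanes need not be technical only.

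Each pair of Cbr2, Folr2 and F13a1 was found in the same cells far more often than independence gives (averaged ratios of 15.8 to 22.8 in the wild type and 6.63 to 10.4 in the knockout), and their promoters are shown for that reason. The sequences are the 250 bases before the start site from RefSeq (GRCm38.p6), read 5′ to 3′ on the minus strand of the chromosome, where all 3 genes lie. Capitals mark AGGAAG or its reverse complement, the core of the site bound by PU.1, the transcription factor that macrophages depend on. RefSeq windows were matched for 6 of the 9 genes. Lyve1, Vcam1 and Msr1 had no entry.
Cbr2 (chr11:120732022-120732271): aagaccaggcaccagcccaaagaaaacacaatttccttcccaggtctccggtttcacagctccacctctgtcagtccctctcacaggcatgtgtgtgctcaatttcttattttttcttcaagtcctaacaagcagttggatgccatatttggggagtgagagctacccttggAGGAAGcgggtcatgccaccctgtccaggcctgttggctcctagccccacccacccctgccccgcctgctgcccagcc
Folr2 (chr7:101845332-101845581): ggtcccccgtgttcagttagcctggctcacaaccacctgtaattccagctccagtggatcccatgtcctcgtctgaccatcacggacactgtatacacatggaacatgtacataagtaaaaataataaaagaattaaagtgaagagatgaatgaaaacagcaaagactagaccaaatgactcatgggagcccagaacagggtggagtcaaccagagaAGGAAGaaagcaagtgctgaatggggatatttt
F13a1 (chr13:37049214-37049463): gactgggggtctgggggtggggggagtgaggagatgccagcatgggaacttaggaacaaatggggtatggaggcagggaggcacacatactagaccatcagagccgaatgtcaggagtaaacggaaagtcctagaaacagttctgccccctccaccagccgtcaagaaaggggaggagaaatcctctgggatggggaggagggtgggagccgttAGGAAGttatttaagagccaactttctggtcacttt

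AGGAAG, searched on both strands, lay in 6 of the 8 windows of these genes, among them both windows of Folr2 and both of F13a1, and 3 times in the window of Mrc1. The windows of Cd163 and Cd209f did not hold it. The same letters were in 29.5% of all 32851 promoter windows of this length. TGCTGA, the core of MAF sites, was in both Folr2 windows and in none of the other 6, against 16.1% of all windows. TGANTCA, the AP-1 site, was in 1 Folr2 window and in that of Cd209f, against 6.75%. Such matches describe the letters only.

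Of the 7 genes with a mean CPM of at least 10, 5 were at least 2-fold higher in the knockout library (Cd163, Mrc1, Lyve1, F13a1 and Vcam1) and 0 were at least 2-fold lower. Among all 7401 genes above that level, 9.04% were at least 2-fold higher and 3.12% at least 2-fold lower. The list was chosen with earlier results of these data known, so this contrast is a description and not a blind comparison. Folr2 and Cd209f lay below the level minimum and are described without entering the count. Among genes with a mean CPM of 5 to 200, the range in which most of the 9 lie, 9.23% were at least 2-fold higher. The median log2 ratio of the 7 genes, computed as log2 of CPM plus 1, was 1.36, and that of all genes was 0.18 (SD 0.69). Between the wild-type lanes 0.0405% of genes were at least 2-fold higher in lane 2 and 0.838% at least 2-fold lower, and none of the 7 genes was among them. With size factors from the median of ratios in place of library totals the median of all genes was -0.04, and 5.45% of genes were at least 2-fold higher. The split of all 2-fold calls then moved from 669 higher and 231 lower to 402 higher and 554 lower, and Mrc1 fell under the 2-fold line (log2 ratio 0.80).

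**Figure D1:**
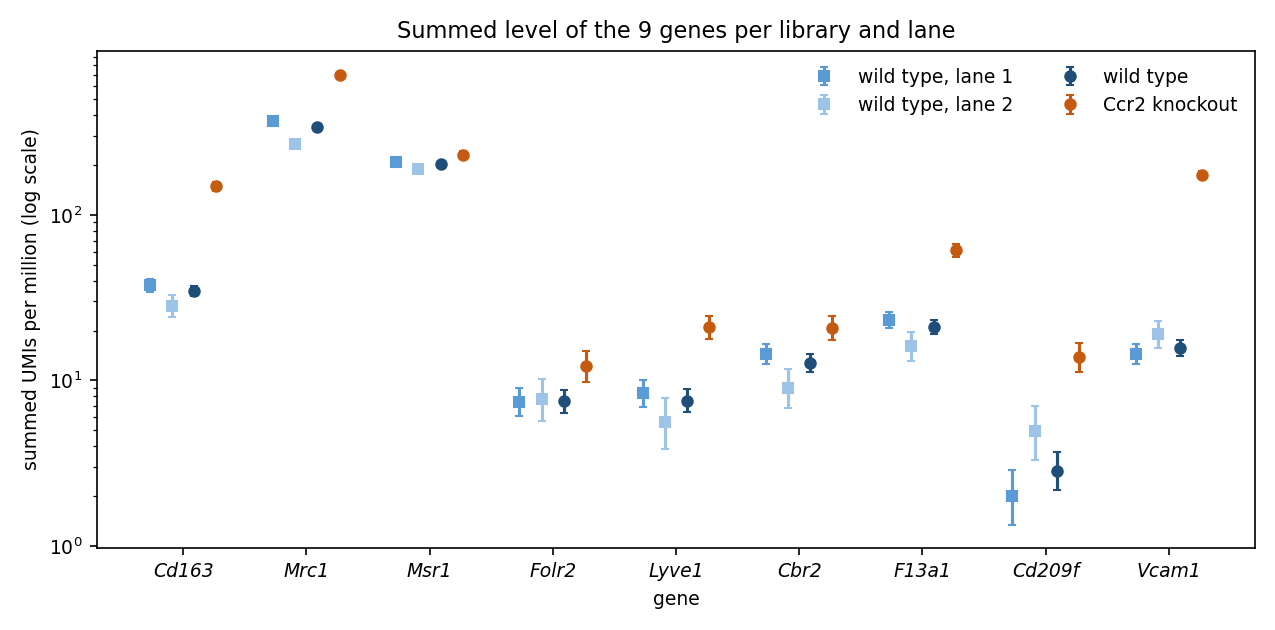
Summed level in CPM on a log axis for each gene in wild-type lane 1, lane 2, the whole wild-type library and the knockout library, with exact 95% Poisson intervals. The knockout point lies above every wild-type point for all 9 genes, by the most for Vcam1 (175 against 15.8 CPM) and by the least for Msr1 (231 against 203 CPM).

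Cd163 (chr6:124304656-124330527, plus strand of GRCm38) encodes the receptor for complexes of haemoglobin and haptoglobin. Its level was 34.8 CPM in the wild type (95% Poisson interval 32.3 to 37.4), with 37.5 in lane 1 and 28.3 in lane 2, and 149 CPM in the knockout (139.9 to 158). The knockout lay 4.28-fold above the wild type (3.89 to 4.70), whereas the lanes differed by 0.756-fold. Cells with a Cd163 UMI were also more frequent when every cell was thinned at random to 1000 UMIs, which removed 1 wild-type and 196 knockout cells below that depth. The thinned share was 3.85% in the wild type (116 of 3015 cells, Clopper-Pearson interval 3.19% to 4.60%) and 12.2% in the knockout (295 of 2416, 10.9% to 13.6%), against unthinned shares of 11.4% and 21.4%. In cells with at least 2 T or B lymphocyte markers and fewer than 2 of the receptors Csf1r, Fcgr1, Adgre1 and Mertk, which should lack the gene, 0 of 27 wild-type and 0 of 32 knockout cells had a Cd163 UMI after thinning, which allows shares of up to 11.1% and 9.38%.

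The size of the Cd163 difference depended on which wild-type cells were compared. Wild-type cells with a Cd163 UMI after thinning had a median depth of 4306 UMIs before thinning, against 6202 in the others. Among cells of 2000 to 4000 UMIs in both libraries (713 wild-type and 1051 knockout), Cd163 stood at 71.9 CPM in the wild type (60.9 to 84.3) and 162 CPM in the knockout (148 to 177), a log2 ratio of 1.16 in place of 2.06. Thinned knockout cells with a Cd163 UMI held 1.52 erythroid UMIs on average and the others 3.59, while the share of cells with any erythroid UMI was 39.0% and 36.4%. Stress transcripts were somewhat higher in the Cd163 cells of the knockout (29.9 UMIs per thinned cell against 24.5) and not in those of the wild type (7.33 against 7.80). The part of these in the difference between libraries was not tested.

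Mrc1 (chr2:14229392-14332057, plus strand) encodes the mannose receptor, CD206, and its gene contains the microRNA gene Mir511. Mrc1 stood at 341 CPM in the wild type (334 to 350), 371 in lane 1, 270.0 in lane 2 and 698 CPM in the knockout (678 to 717). The ratio of 2.04 (1.97 to 2.12) was just past the 2-fold line, and at 2000 to 4000 UMIs per cell it no longer was. In that band the wild type held 530.0 CPM (499 to 562) and the knockout 707 CPM (678 to 738), a log2 ratio of 0.42 in place of 1.03. Against lane 1 alone the log2 ratio was 0.91, and without cells that carried at least 2 monocyte markers it was 0.93. In the same band of depth the log2 ratio was 1.04 for Lyve1, 1.26 for F13a1, 2.79 for Vcam1 and 0.04 for Msr1. Thus 4 of the 7 genes were at least 2-fold higher there, against 5.86% of all genes above the level minimum in the band. Folr2 also passed the minimum there, at 7.57 CPM in the wild type and 12.5 CPM in the knockout, without reaching 2-fold.

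At 1000 UMIs per cell a Mrc1 UMI was found in 29.9% of the wild type (28.2% to 31.5%) and in 43.8% of the knockout (41.8% to 45.8%). Without thinning the order was the opposite, 77.5% and 68.3%, at median depths of 6129 and 2439 UMIs. The share among lymphocyte-marker cells was 1 of 27 and 1 of 32. Knockout cells with a Mrc1 UMI carried 29.4 stress UMIs and those without 21.8, while the wild-type values were 7.85 and 7.76, and whether this difference contributes to the Mrc1 level was not tested.

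Msr1 (chr8:39581685-39642673, minus strand) encodes the class A scavenger receptor, which takes up modified lipoproteins. Its level was 203 CPM in the wild type (197 to 209), 209 and 189 in the lanes, and 231 CPM in the knockout (220.4 to 243). The ratio of 1.14 (1.08 to 1.21) was close to the shift of all genes on the log2 scale, 0.19 against 0.18, and with the median of ratios it changed sign to -0.04. Thinned shares were 18.8% (17.4% to 20.2%) and 20.7% (19.1% to 22.4%), so their intervals overlapped. Of the scavenger receptors Cd163, Mrc1 and Msr1, it was the one that was not at least 2-fold higher in the knockout library.

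Folr2, Lyve1, Cbr2 and F13a1 were sparse genes, each found in under 10% of cells of either library. Folr2 (chr7:101839988-101857194, minus strand) encodes the folate receptor beta of macrophages, and its span overlaps the antisense gene Gm10602 and the pseudogene Gm45319 on the other strand. Folr2 was at 7.50 CPM in the wild type (6.36 to 8.77), 7.41 and 7.70 in the lanes and 12.2 CPM in the knockout (9.84 to 15.1). The ratio was 1.63 (1.24 to 2.13), the lower bound of which lies above 1. After thinning, 17 of 3015 wild-type cells and 20 of 2416 knockout cells had a Folr2 UMI in the draw reported. These shares were 0.564% (0.329% to 0.901%) and 0.828% (0.506% to 1.28%), so that a difference in the share of cells was not detectable in that draw. Averages over all draws were 0.669% and 1.12%, a wider contrast.

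Lyve1 (chr7:110850607-110863239, minus strand) encodes a hyaluronan receptor shared by perivascular macrophages and lymphatic endothelium. It was counted at 7.54 CPM in the wild type (6.41 to 8.83), 8.37 and 5.57 in the lanes, and 20.9 CPM in the knockout (17.7 to 24.5), a ratio of 2.77 (2.20 to 3.49). One knockout cell held 12 of the 152 Lyve1 UMIs. The same cell held 163 UMIs of endothelial markers, 115 of them from Ccl21a and 24 from Mmrn1, against 3 UMIs of core macrophage markers. Without that cell, a comparison added after seeing the data, the log2 ratio of Lyve1 was 1.25 in place of 1.36, and with a pseudocount of 10 CPM it was 0.82, under the 2-fold line. Cells gated as macrophages held 84.9% of knockout Lyve1 UMIs and 99.4% of wild-type ones. That gate held 2172 of 2612 knockout and 2921 of 3016 wild-type cells, so both values are near the share of all cells. The 21 knockout cells gated as endothelial held 2.63% of the Lyve1 UMIs, a value that leaves out the cell with 12 Lyve1 UMIs, which fell in no gate.

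Cbr2 (chr11:120729489-120732114, minus strand) encodes a carbonyl reductase that is widely used as a marker of resident macrophages. It stood at 12.8 CPM in the wild type (11.3 to 14.5) and 20.8 CPM in the knockout (17.6 to 24.4), with 14.4 in lane 1 and 9.01 in lane 2. The ratio was 1.62 (1.32 to 1.99) and stayed below 2-fold except against lane 2 alone, where the log2 ratio was 1.12.

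F13a1 (chr13:36867178-37050244, minus strand) encodes the A subunit of coagulation factor XIII, a transglutaminase that cross-links fibrin. The antisense genes Gm49144 and Gm30489 overlap it. Its level was 21.1 CPM in the wild type (19.2 to 23.2), 23.2 and 16.2 in the lanes and 61.1 CPM in the knockout (55.6 to 67.1), a ratio of 2.89 (2.53 to 3.31). The thinned share was 2.02% (1.55% to 2.59%) in the wild type and 4.35% (3.57% to 5.24%) in the knockout, with intervals that do not overlap. All 4 genes except Folr2 were lower in lane 2 than in lane 1, by log2 differences of 0.49 to 0.62, and this spread between lanes is about the size of the difference between genotypes for Cbr2.

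Cd209f (chr8:4102787-4105835, minus strand) is one of a cluster of C-type lectin paralogues related to human DC-SIGN, so reads may be divided among near-identical copies. It was the rarest gene of the list, with 59 wild-type UMIs (2.85 CPM, 2.17 to 3.68) and 100 knockout UMIs (13.8 CPM, 11.2 to 16.7). The ratio was 4.82 (3.46 to 6.77). The lanes differed by 2.47-fold (1.43 to 4.26), with 1.99 CPM in lane 1 and 4.91 CPM in lane 2, and this was the only gene of the list that was that far apart between lanes. Thinned shares were 0.166% (5 cells, 0.0539% to 0.387%) and 1.32% (32 cells, 0.908% to 1.86%) in the draw reported, but 0.295% and 1.20% as averages over all draws, a smaller contrast.

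Vcam1 (chr3:116109949-116129688, minus strand) encodes an adhesion molecule that binds the integrin of Itga4 and Itgb1, and it is carried by endothelium, stromal cells and some resident macrophages. The antisense gene Gm43109 overlaps it. The wild type held 15.8 CPM (14.1 to 17.6), with 14.4 in lane 1 and 19.0 in lane 2, and the knockout 175 CPM (165 to 185). This was the largest ratio among the 9 genes, 11.1 (9.81 to 12.6), and the log2 ratio of 3.39 ranged from 2.79 to 3.51 over all alternatives. Thinned shares were 1.76% (1.32% to 2.29%) and 11.2% (9.99% to 12.5%).

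Vcam1 is also a gene of fibroblasts, and fibroblast markers differed between the libraries. The 7 fibroblast and stromal markers summed to 28.4 CPM in the wild type (34.5 and 14.1 in the lanes) and 249 CPM in the knockout, none was at 0 in either, and all 4 that passed the level minimum were at least 2-fold higher. The 22 knockout cells gated as fibroblasts held 26 of the 1270 Vcam1 UMIs, or 2.05%. Cells gated as macrophages held 93.2% of them, at 184 CPM, against 16.0 CPM in the wild-type macrophage gate. A fibroblast marker was found in 9.23% of thinned knockout cells with a Vcam1 UMI and in 4.43% of those without, and the former held 29.4 stress UMIs on average and the latter 24.6. The part of fibroblast and stress transcripts in the Vcam1 difference was not tested. Endothelial markers summed to 53.4 CPM in the wild type (53.7 and 52.7 in the lanes) and 195 CPM in the knockout, and the 21 endothelial-gated knockout cells held 0 Vcam1 UMIs.

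**Figure D2:**
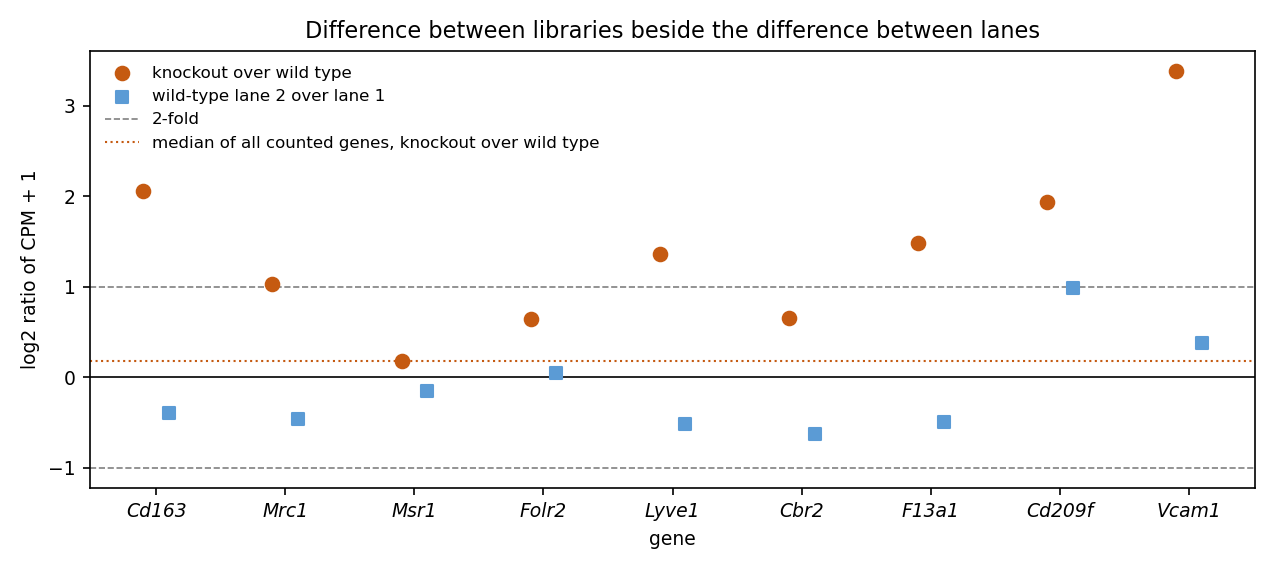
Log2 ratio of CPM plus 1 for each gene, knockout over wild type (circles) and wild-type lane 2 over lane 1 (squares), with dashed lines at 2-fold and a dotted line at the median of all genes. Vcam1 stands at 3.39 for genotype and 0.38 for lanes, Cd209f at 1.94 and 0.98, and Msr1 at 0.19, on the all-gene median.

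The sort gate left some cells with monocyte transcripts, and the members differed in whether these cells carried them. At least 2 monocyte markers other than Ccr2 were found in 391 wild-type and 33 knockout cells, and the 8 monocyte markers summed to 654 CPM in the wild type (647 and 672 in the lanes) and 156 CPM in the knockout, with Hp at 0. The cells were counted without thinning, at median depths of 6129 UMIs in the wild type and 2439 in the knockout. Shallower cells pass such a gate less readily, and the part of depth in the 391 against 33 cells was not tested. In the 391 wild-type cells Cd163 stood at 14.3 CPM (10.8 to 18.7) and Mrc1 at 213 CPM, against 39.8 and 374 CPM in macrophage-gated cells without monocyte markers. Cbr2 was at 1.56 CPM in the former and 15.6 CPM in the latter. F13a1 did not follow this pattern, with 21.1 CPM in the monocyte-marker cells and 21.3 CPM in the others. Levels of Cd163 and Mrc1 also differed with depth within the wild type. In the shallower band read above (median 2940 UMIs) they stood at 71.9 and 530.0 CPM, against 34.8 and 341 CPM in all wild-type cells. The part of depth in the contrasts between monocyte-marker cells and the others was not tested. At equal depth F13a1 was found in 12 of the 391 monocyte-marker cells (3.07%, 1.60% to 5.30%). Folr2, Lyve1, Cbr2 and Cd209f were found in 0 of them, but the limit of 0.767% that this allows is above the shares of Folr2 (0.564%) and Cd209f (0.166%) in all wild-type cells and close to that of Lyve1 (0.796%), so for these 3 genes a lower share was not detectable at this depth. Leaving these cells out of both libraries changed the log2 ratio of Cd163 from 2.06 to 1.91 and that of Vcam1 from 3.39 to 3.21.

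Co-detection was measured in the thinned cells as the number of cells with a UMI of both genes over the number expected if the genes were independent. Of the 36 pairs among the 9 genes, 11 in the wild type and 19 in the knockout had at least 5 expected cells. In the wild type 4 of the 11 were at least 2-fold above expectation (Mrc1 with Folr2, Lyve1, Cbr2 and F13a1), against 0.288% of all gene pairs of that kind. In the knockout 5 of the 19 were (Cd163 with Lyve1, Cbr2, F13a1 and Vcam1, and F13a1 with Vcam1), against 0.292%. No pair was at 0.5 or below in either library, against 3.01% and 3.21% of all pairs. These pairs share their cells, and a few cells carry several of the genes, so they are not independent of each other.

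Most pairs of sparse genes have too few expected cells for that count, and 1 random draw of 1000 UMIs is noisy for them. Their ratios below are therefore averages over all possible draws, computed from the hypergeometric distribution, a choice made after seeing the data. Folr2 with Cbr2 was 22.8-fold above expectation in the wild type (17.5 in lane 1) and 10.4-fold in the knockout. Cbr2 with F13a1 was 18.6-fold above it in the wild type, 18.4-fold in lane 1 and 8.43-fold in the knockout. Folr2 with F13a1 stood at 15.8 and 6.63, Folr2 with Lyve1 at 13.7 and 7.44, Lyve1 with Cbr2 at 13.5 and 6.38, and Lyve1 with F13a1 at 9.16 and 5.25. All 6 pairs among these 4 genes were thus more than 5-fold above expectation in both libraries. The share of all gene pairs at such ratios was not computed for pairs with so few expected cells. In the reported wild-type draw, the cells with both genes ranged from 3 for Folr2 with Lyve1 to 12 for Cbr2 with F13a1. The ratio was lower in the knockout for each of the 6 pairs, and the genes were found in more cells there. The highest ratio a pair can reach is lower for more frequent genes, and the part of this in the difference was not tested. In the draw reported, 35.3% of the 34 Cbr2 cells of the wild type also had F13a1 (19.7% to 53.5%), against 1.64% of the other cells (1.22% to 2.17%). In the knockout 34.1% of 41 Cbr2 cells had it (20.1% to 50.6%), against 3.83% of the others (3.10% to 4.68%).

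**Figure D3:**
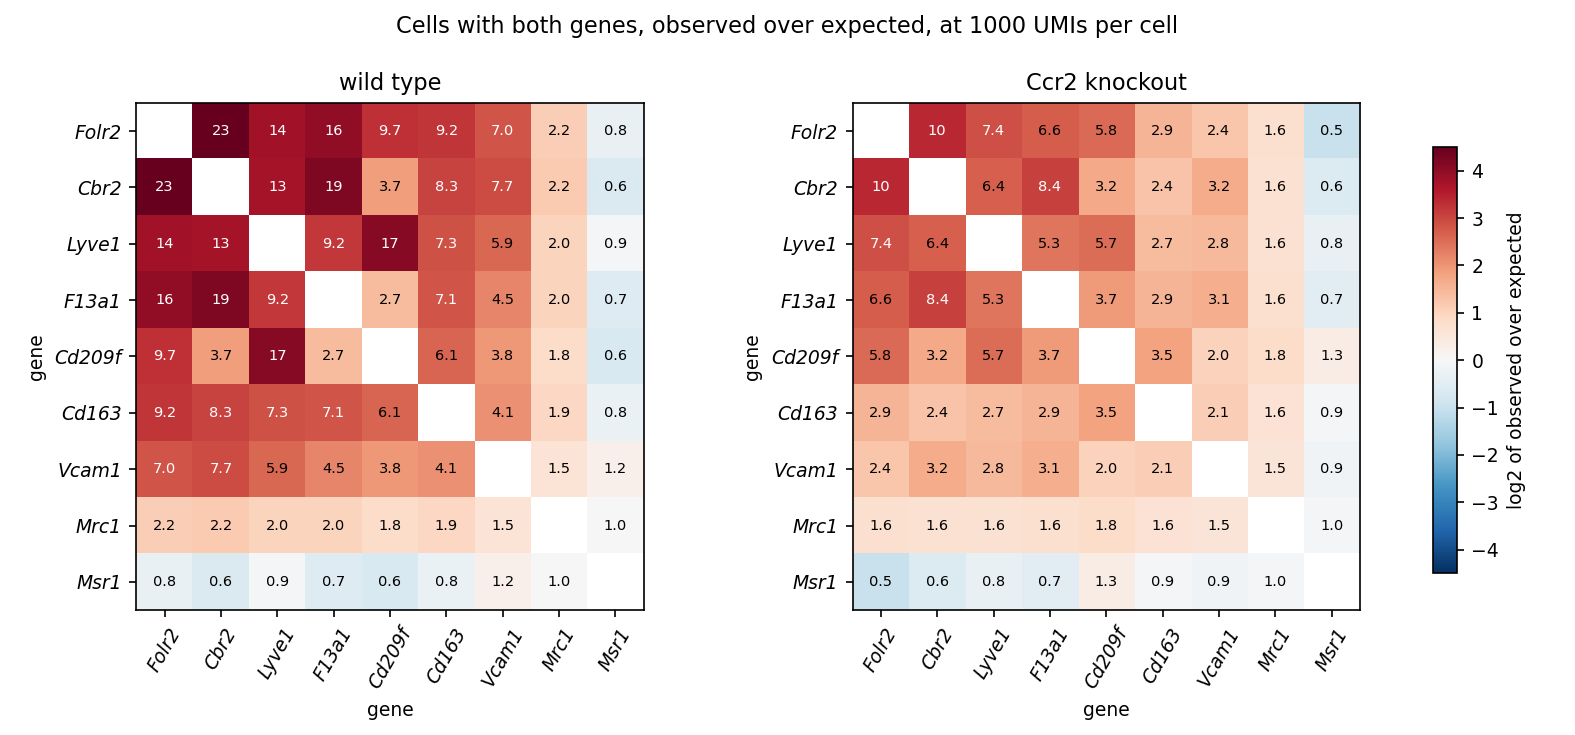
Ratio of observed to expected cells with both genes at 1000 UMIs per cell, averaged over all draws, for each pair in the wild type and the knockout, coloured on a log2 scale. The pairs among Folr2, Cbr2, Lyve1 and F13a1 lie between 9.16 and 22.8 in the wild type and between 5.25 and 10.4 in the knockout. Some pairs of Cd209f or Cd163 with these genes also reach these ranges. Mrc1 with these genes stands below every pair among them. Msr1 stands below 1 with these genes and near 1 or below with Mrc1 and Cd163. It stands above 1 with Vcam1 in the wild type and with Cd209f in the knockout.

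The same was seen without thinning when each of the 4 genes was read in cells sorted by the other 3. Cbr2 was present in 0.838% of the 2744 wild-type cells with none of the other 3 genes, in 15.2% of the 204 cells with 1 and in 52.9% of the 68 cells with 2 or 3 (40.4% to 65.2%). The depths of these groups were similar, with medians of 6037, 6717 and 7046 UMIs per cell. These 68 of 3016 cells held 54.7% of its Cbr2 UMIs. In the knockout the Cbr2 shares were 1.14%, 18.3% and 40.3% (28.9% to 52.5%), with medians of 2342, 2863 and 3508 UMIs per cell, so that depth was higher along with the share. F13a1 was present in 3.30%, 33.5% and 83.0% of wild-type cells (69.2% to 92.4% for the last group) and in 5.39%, 39.3% and 73.1% of knockout cells. Folr2 reached 37.0% and 26.0% and Lyve1 35.4% and 30.7% in the cells with at least 2 of the other 3. Cells with none of the other 3 genes held 36.6% of F13a1 UMIs in the wild type and 46.6% in the knockout. For Lyve1 these were 40.4% and 45.4%, for Folr2 23.9% and 33.7%, and for Cbr2 12.8% and 20.5%.

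**Figure D4:**
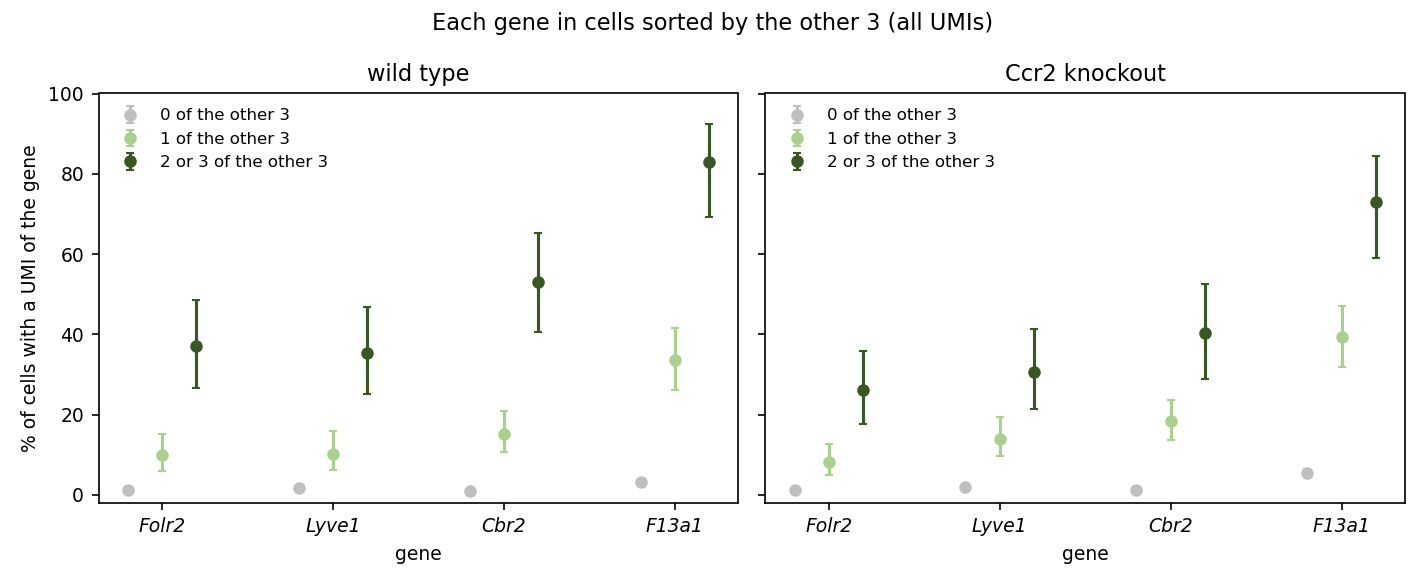
Percentage of cells with a UMI of each of the 4 genes, at full depth, in cells with 0, 1 or at least 2 of the other 3 genes, with 95% Clopper-Pearson intervals. Every gene is more frequent where more of the other 3 were found, in both libraries, with 0.838% and 52.9% for Cbr2 and 3.30% and 83.0% for F13a1 at the ends in the wild type.

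Cells with at least 2 of the 4 genes were few. After thinning there were 20 of 3015 in the wild type (0.663%), where 2.09 were expected under independence, and 27 of 2416 in the knockout (1.12%), where 5.68 were expected. Averaged over all draws the numbers were 22.3 and 31.3, or 10.9 and 4.95 times the independent expectation. Lane 1 held 17 of the 20 wild-type cells and lane 2 held 3, and the averaged ratio was 10.7 in lane 1 and 10.9 in lane 2. A single cell in each library had all 4 genes after thinning, and 14 wild-type and 6 knockout cells had all 4 at full depth.

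Cd163, Mrc1 and Vcam1 were found more often in these cells, and Msr1 was not. The shares are given as averages over all draws, with the draw reported and its interval where single cells weigh most. In the wild type Cd163 was present in 2.91% of cells with none of the 4 genes, in 22.7% of those with 1 and in 39.0% of those with at least 2, and the draw had 7 of 20 in the last group (35.0%, 15.4% to 59.2%). In the knockout the averages were 10.49%, 31.9% and 36.9%, while the draw gave 55.6% (35.3% to 74.5%) for the last group. Mrc1 averaged 29.3%, 56.9% and 75.1% in the wild-type groups and 42.5%, 71.2% and 74.9% in the knockout groups. Vcam1 averaged 1.36%, 7.08% and 13.3% in the wild type, where the draw had 5 of 20 cells in the last group (8.66% to 49.1%). In the knockout Vcam1 averaged 9.5%, 32.2% and 35.9%. Msr1 averaged 19.2%, 14.3% and 13.4% in the wild type and 20.4%, 15.8% and 10.3% in the knockout, and the intervals of the draw overlapped throughout.

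Genes outside the list that mark resident or incoming macrophages were read in the same cells, again as averages over all draws. Ccr2 was found in 20.9% of wild-type cells with none of the 4 genes, in 19.2% of those with 1 and in 4.07% of those with at least 2. The draw had 0 of 20 in the last group, for which the Clopper-Pearson upper limit is 16.8%. Pf4, a platelet chemokine also made by resident macrophages, averaged 51.9%, 79.4% and 94.6% in the wild-type groups and 44.0%, 70.0% and 84.6% in the knockout groups. Fcrls, an Fc receptor-like gene, averaged 4.75% with none of the 4 genes and 39.1% with at least 2 in the wild type, and 5.08% and 19.1% in the knockout. Maf, a transcription factor gene of resident macrophages, averaged 27.3% and 66.5% in the wild type and 43.3% and 82.9% in the knockout. Timd4 and Cd4 are markers of long-lived gut macrophages. Timd4 averaged 3.77%, 3.61% and 5.82% in the wild-type groups, with 3 of 20 cells in the last group of the draw (3.21% to 37.9%), and 15.6%, 9.37% and 10.9% in the knockout groups. Cd4 averaged 9.82%, 8.93% and 4.73% in the wild type and 19.9%, 12.6% and 12.7% in the knockout.

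**Figure D5:**
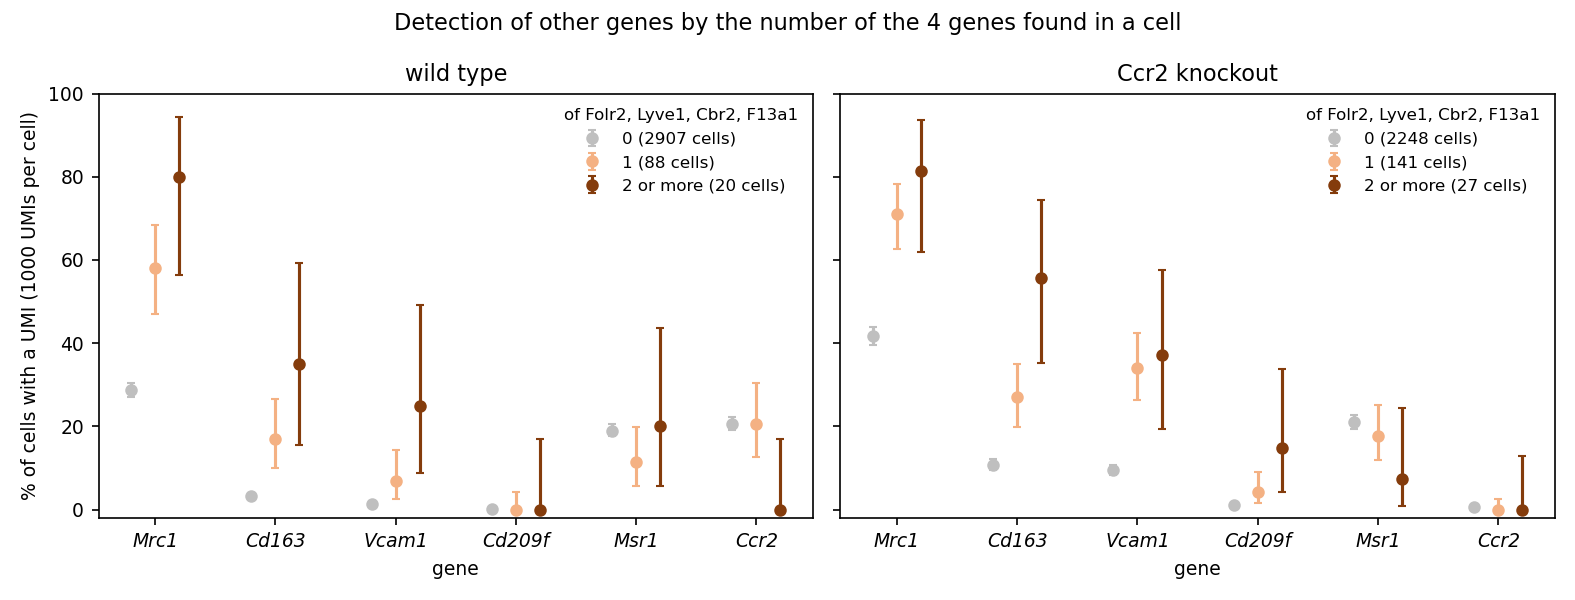
Percentage of thinned cells, in the draw reported, with a UMI of Mrc1, Cd163, Vcam1, Cd209f, Msr1 and Ccr2 in cells with 0, 1 or at least 2 of Folr2, Lyve1, Cbr2 and F13a1, with 95% Clopper-Pearson intervals. Mrc1, Cd163 and Vcam1 are more frequent where more of these genes were found in both libraries, Msr1 is not, and Ccr2 was in 0 of the 20 wild-type cells with at least 2.

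Cd163 and Mrc1 were found together 1.89 times as often as under independence in the wild type (1.87 and 1.90 in the lanes) and 1.58 times in the knockout. In the draw reported, 67 of 116 wild-type Cd163 cells had a Mrc1 UMI (57.8%, 48.2% to 66.9%), against 28.7% of the other cells. In the knockout 69.5% of Cd163 cells had it, against 40.3% of the others. A gene as frequent as Mrc1, in 29.9% of cells, cannot reach the ratios of the sparse genes, so the ratios do not rank the pairs. By phi, which also depends on frequency, Cd163 with Mrc1 stood at 0.12 in the wild type, below Cbr2 with F13a1 (0.25). In the knockout both pairs stood at 0.19.

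Cd163 with Folr2, Lyve1, Cbr2 and F13a1 stood between 7.14 and 9.20 in the wild type and between 2.42 and 2.91 in the knockout. Vcam1 was linked to the same genes, with averaged ratios of 7.03 for Folr2, 7.74 for Cbr2, 5.94 for Lyve1 and 4.55 for F13a1 in the wild type and of 2.37, 3.16, 2.76 and 3.14 in the knockout. Vcam1 and F13a1 were found together in 44 knockout cells, where 11.8 were expected, so 16.2% of Vcam1 cells had F13a1 (12.1% to 21.2%) against 2.84% of other cells (2.18% to 3.64%). Cd163 with Vcam1 was at 4.12 in the wild type and 2.13 in the knockout, where 72 cells had both.

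Cd209f was found above expectation with other members in the knockout, on few cells, and could hardly be placed in the wild type. Averaged over draws, its ratios in the knockout were 5.81 with Folr2, 5.69 with Lyve1, 3.75 with F13a1, 3.47 with Cd163 and 3.24 with Cbr2. In the draw reported 22 of the 32 knockout Cd209f cells had none of the 4 sparse genes, 6 had 1 and 4 had at least 2. The knockout ratios with these genes thus rest on few cells. In the same draw the wild type had 5 Cd209f cells, none of which had any of the 4 sparse genes. The averaged wild-type ratio with Lyve1 was 17.1, but it rested on 1.16 cells with both, and Cd209f is not placed there by these data.

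Msr1 was not found above expectation with the 4 sparse genes. Its averaged ratios with Folr2, Lyve1, Cbr2 and F13a1 were 0.80, 0.94, 0.64 and 0.67 in the wild type and 0.50, 0.79, 0.65 and 0.72 in the knockout, all below 1. With Cd163 they were 0.81 and 0.95, and with Mrc1 1.01 and 0.96. Vcam1 and Cd209f differed between libraries, with averaged ratios of 1.16 and 0.90 for Vcam1 and of 0.62 and 1.27 for Cd209f. Single draws scattered on both sides of 1 for several of these pairs, and the reported draw gave 1.10 for Msr1 with Cd163 and 1.41 with Vcam1 in the wild type. Msr1 was instead found above expectation with Timd4 (1.37 and 1.22), Cd4 (1.33 and 1.18) and Ccl24 (1.60 and 1.28). With Ccr2 it was at 0.65 in the wild type.

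Ccr2 separated the members in the wild type. Its averaged ratio was 0.33 with Cbr2, 0.34 with Folr2, 0.50 with Cd163 and 0.58 with Lyve1, but 0.91 with Mrc1 and 0.98 with F13a1. F13a1 was therefore the one gene of the 4 sparse ones that was found as often in cells with Ccr2 as in cells without it. Plac8, another monocyte gene, had ratios of 0.18 with Cbr2, 0.26 with Folr2 and with Lyve1, 0.40 with Cd163, 0.64 with F13a1 and 0.67 with Mrc1.

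For each member the genes most like it were ranked by the phi coefficient of detection over 3015 thinned wild-type cells, among about 7010 genes found in 1% to 95% of them. Phi depends on depth and on the share of cells, and all values were low, 0.27 or less. Folr2 was most like Cbr2 (phi 0.24) and F13a1 (0.24), and the same 2 genes ranked first and second for it among 7386 genes in the knockout (0.24 and 0.20). Cbr2 was most like F13a1 in both libraries (0.25 and 0.19). Cbr2 was also the gene most like Lyve1 (0.17), F13a1 (0.25) and Vcam1 (0.13) in the wild type and the second for Cd163 (0.16). In the knockout Vcam1 and F13a1 ranked first for each other (0.21), and F13a1 first for Lyve1 (0.18).

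In the wild type Cd163 was most like Dab2, an endocytic adaptor (phi 0.16 in both libraries). Mrc1 was most like Pf4 there (0.16, and 0.20 in the knockout), followed by Marcks (0.13 and 0.19) and Maf (0.12 and 0.20). In the knockout Dab2 was at rank 15 for Cd163 and Pf4 at rank 7 for Mrc1, and Ccl6 ranked first for Cd163 (0.22). In the knockout the chemokine gene Ccl2 ranked first for Mrc1 (0.27) and second for Cd163 (0.22) and Vcam1 (0.19), while the corresponding wild-type values were 0.06, 0.05 and 0.08. Msr1 had no member among its nearest genes. Its nearest in the wild type were the nuclease gene Dnase1l3 (0.13 and 0.10), Npl (0.11 and 0.07) and Wnt4 (0.11 and 0.11). Smagp, which followed Cbr2 and F13a1 for Folr2 in the wild type at 0.17, was at -0.01 in the knockout, and Cd209f has no reliable neighbours in the wild type on 5 cells.

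Related genes were read from lists of the same pathways. Of 20 further perivascular and resident macrophage genes above the level minimum, 7 were at least 2-fold higher in the knockout and 1 lower, against 9.04% and 3.12% of all genes, with a median log2 ratio of 0.32. The complement gene C4b (7.50 to 38.8 CPM), Timd4 (34.2 to 162 CPM), the growth factor gene Igf1 (32.6 to 134 CPM) and Gas6 (74.2 to 237 CPM), a ligand for receptors of dying cells, were the furthest apart. The list did not move as a whole. Mgl2 was the gene at least 2-fold lower (295 to 145 CPM). Pltp (144 to 72.8 CPM), Tmem176b (1133 to 590 CPM) and Cd209b (25.2 to 14.5 CPM), of the same gene family as Cd209f, were also lower. Among 7 other scavenger receptors 1 was at least 2-fold higher and 1 lower, with a median of 0.50. These were the lipid receptor Cd36, at 41.4 CPM in the wild type and 140.4 CPM in the knockout, and the lysosomal Cd68, at 292 and 145 CPM. The all-gene median was 0.18.

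Of 10 genes of haemoglobin and iron clearance, which acts downstream of Cd163, 1 was at least 2-fold higher and 0 lower, close to the 9.04% and 3.12% of all genes, with a median log2 ratio of 0.31. That gene was the iron exporter Slc40a1, at 37.7 CPM in the wild type (40.6 and 30.8 in the lanes) and 270 CPM in the knockout. Haem oxygenase, Hmox1, was at 61.8 and 117 CPM. For the 3 folate genes above the minimum, which share a pathway with Folr2, the median was -0.28 with none past 2-fold. Among 6 adhesion genes related to Vcam1, Pecam1 was at least 2-fold higher (50.6 and 137 CPM), the integrin subunit Itgb7 at least 2-fold lower (24.1 and 5.37 CPM), and the Vcam1 partner Itga4 stood at 126 and 88.4 CPM, with a list median of -0.03.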

How the data were processed

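The authors deposited raw UMI counts for each gene in each cell barcode, made with Cell Ranger 3.0.1 and mm10, per the submitters' processing notes, which give no role or order. The annotation, the cell calling and the use of strand are not given in the sources used here. Of the 27998 gene ids, 27645 were found in GENCODE M21.

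Cells with fewer than 200 genes or more than 10% mitochondrial UMIs were removed, which left 3016 of 3054 wild-type and 2612 of 2774 knockout barcodes with 20678108 and 7265386 UMIs. Counts were summed per library and lane and divided by the library total (CPM). Log2 ratios used a pseudocount of 1 CPM, and 2-fold counts were taken among genes with a mean of at least 10 CPM. Exact Poisson intervals were used for sums and Clopper-Pearson intervals for shares. For co-detection each cell was thinned without replacement to 1000 UMIs. Doublets were kept, because Scrublet's automatic threshold marked too few cells, and the 43 wild-type and 55 knockout cells with the highest scores were left out as an alternative. With 1 library per genotype no test was run. Python 3.11.15, numpy 2.4.6, scipy 1.17.1, pandas 2.3.3 and scanpy 1.11.5 were used, and the scripts were tested on simulated data.

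The named genes are the 9 members, 7 reference genes (Timd4, Cd4, Ccr2, Plac8, C1qa, Cx3cr1 and Ccl24), the 3 genes most alike to each member by phi (not all are reported here), and up to 4 genes of each pathway list with the highest absolute log2 ratio. Pf4, Fcrls, Maf, Mgl2, Pltp, Tmem176b, Cd209b and the genes nearest in the knockout were named after their values were seen. Members and lists were chosen with earlier results of these data known.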

Additional observations from a re-analysis of the deposited data

How the results depend on the processing

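No paired analysis was possible because each genotype has 1 library. The number of genes at least 2-fold higher lay between 4 and 6 under all alternatives, and none was at least 2-fold lower under any. Pair counts moved more, and alternatives that change the cells, the depth or the seed drew the UMIs anew, so that their values hold the scatter between draws as well. In the wild type 4 pairs were at least 2-fold above expectation in the reported draw, 1 with lane 1 only, 0 with lane 2 only (1 in the reported draw), 2 with macrophage-marker cells only, 2 without monocyte-marker cells and 1 at 2000 UMIs. In the knockout there were 5, against 2 with at least 500 genes and at most 5% mitochondrial UMIs and 12 at 2000 UMIs. A minimum of 1 expected cell, added after seeing the data, gave 8 of 18 wild-type and 13 of 29 knockout pairs. The share of all gene pairs was not computed at that minimum. Also added then were the average over all draws, with 4 and 4, and the omission of the knockout cell with the most Lyve1 UMIs. The log2 ratio of Msr1 was -0.045 with median-of-ratios factors. The ratio for Cd163 with Msr1 in the wild type was 1.10, but 0.173 in lane 2 (1.38 for the same lane in the reported draw and 0.80 over all draws), 0.595 with the stricter filter, 0.432 without doublets, 0.614 without monocyte-marker cells, 0.830 at 2000 UMIs, 0.682 with another seed and 0.809 over all draws. For Lyve1 with Msr1 in the knockout it was 1.06, but 0.780 with the stricter filter, 0.712 without doublets, 0.526 in macrophage-marker cells, 0.787 without monocyte-marker cells, 0.828 at 2000 UMIs, 0.635 with another seed and 0.794 over all draws. With the stricter filter the wild-type ratio was 0.945 for Mrc1 with Msr1 and 0.577 for Vcam1 with Msr1, and the knockout ratio of F13a1 with Msr1 was 1.21. Without doublets Mrc1 with Msr1 stood at 0.95 in the wild type and Vcam1 with Msr1 at 1.01 in the knockout. In macrophage-marker cells F13a1 with Msr1 stood at 1.03 in the wild type and Cbr2 with Msr1 at 1.32 in the knockout, and another seed gave 1.03 for F13a1 with Msr1 in the wild type. The cause was not tested. Of the other co-detection values 186 kept their side and size and 5 moved, and of the log2 ratios 68 stayed within their counting interval and 30 moved.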
